A study of Homo sapiens with 6 samples.

Results

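The 10 genes described here are transcription factors and a cofactor of the integrated stress response, with other factors of the same protein family: ATF4, ATF3, ATF5, DDIT3, CEBPB, CEBPG, JDP2, TRIB3, NFIL3 and CEBPA. They are 10 of 18132 genes on the array, and they are read by 24 of the 44988 probe sets that name a single gene. The genes were chosen from the same contrast that is reported here, as a group picked for its fall in the series, which ATF5 and CEBPA do not share, so their differences are given as a description with no test. The cells were HCT-116, a human line established from a colorectal carcinoma and described by the labels as rich in Aurora-A and PLK-1, and 3 arrays came from cells given AAPK and 3 from cells given the vehicle DMSO. AAPK is named in the series title as an inhibitor of both mitotic kinases, and the labels give 10 µM and 48 h in a treatment field worded alike for both groups. Affymetrix arrays were used, and values are log2 signals, so a difference of 1 is a factor of 2.

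In the integrated stress response, kinases that sense amino acid shortage, endoplasmic reticulum stress, viral RNA or haem deficiency phosphorylate the initiation factor eIF2. General translation then slows, while the ATF4 messenger, whose upstream reading frames normally divert ribosomes, is translated more. ATF4 is a basic leucine zipper (bZIP) protein that pairs with C/EBP proteins and switches on genes for amino acid supply, and with lasting stress its target DDIT3, which encodes CHOP, can promote cell death. TRIB3 is a pseudokinase that is induced by ATF4 and CHOP and restrains them.

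The arrays resembled each other closely, with Pearson correlations over all probe sets of 0.9976 to 0.9983 for arrays of the same group and 0.9942 to 0.9954 for AAPK against DMSO arrays. The epithelial keratins KRT8 and KRT18 were bright, at mean log2 signals of 11.93 and 12.48, whereas the brightest EPCAM, CDH1 and KRT19 probe sets were dim, between 3.42 and 5.11. Of 10 colon epithelial markers 2 passed the test as higher, KRT8 and ELF3, where 8.11% of all genes were called higher. Both were higher by 0.17 on the log2 scale (limma adjusted p = 0.0402 and 0.0483). The colon list averaged 7.32 to 7.33 on AAPK arrays and 7.28 to 7.33 on DMSO arrays. None of 6 measured blood markers and none of 10 fibroblast and endothelial markers passed limma's threshold, and before adjustment 1 of each list had p under 0.05. The blood list averaged 5.95 to 5.98 on AAPK arrays and 5.98 to 6.02 on DMSO arrays, and the fibroblast and endothelial list 6.14 to 6.26 and 6.22 to 6.26. RNA was taken from whole cultures, so fewer cells with a transcript and less of it per cell cannot be told apart.

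Promoter windows of the 10 genes were searched for 3 motifs on both strands, because several of the genes had lower signal together. RefSeq (GRCh38.p14) gave 22 windows for all 10 genes, each holding 250 bases before a transcript start and 50 after it. TGATGNAA, the core of the C/EBP-ATF response element that ATF4 binds with a C/EBP partner, was found in 3 of the 22 windows, 1 each of CEBPG, JDP2 and ATF3, and in 3.62% of 35116 windows of all genes. TTGCNNAA, a C/EBP site, was in 4 windows, of ATF3, ATF5 and NFIL3, against 10.5% of all windows. TGACGTCA, the cyclic AMP response element, was in 0 of the 22 windows and in 1.85% of all. Starts and windows overlap between transcripts of a gene, and a match is a description of letters, not of binding. The 4 windows below show the response element in CEBPG, JDP2 and ATF3 and the C/EBP site of NFIL3, 5′ to 3′ on the gene's strand, with the matched letters in capitals.
CEBPG promoter (chr19:33373863-33374162, + strand): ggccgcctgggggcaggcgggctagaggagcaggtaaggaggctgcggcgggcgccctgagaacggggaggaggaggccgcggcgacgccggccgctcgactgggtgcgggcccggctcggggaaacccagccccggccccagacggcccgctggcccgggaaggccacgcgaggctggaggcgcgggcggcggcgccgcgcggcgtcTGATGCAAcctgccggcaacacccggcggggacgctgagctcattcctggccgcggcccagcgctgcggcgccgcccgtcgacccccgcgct
JDP2 promoter (chr14:75427772-75428071, + strand): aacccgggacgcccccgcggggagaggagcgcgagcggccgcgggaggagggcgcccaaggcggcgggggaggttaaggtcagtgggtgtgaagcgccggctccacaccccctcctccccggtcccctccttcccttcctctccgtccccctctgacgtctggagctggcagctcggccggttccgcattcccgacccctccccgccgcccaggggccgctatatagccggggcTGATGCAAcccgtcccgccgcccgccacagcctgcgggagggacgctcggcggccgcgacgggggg
ATF3 promoter (chr1:212565157-212565456, + strand): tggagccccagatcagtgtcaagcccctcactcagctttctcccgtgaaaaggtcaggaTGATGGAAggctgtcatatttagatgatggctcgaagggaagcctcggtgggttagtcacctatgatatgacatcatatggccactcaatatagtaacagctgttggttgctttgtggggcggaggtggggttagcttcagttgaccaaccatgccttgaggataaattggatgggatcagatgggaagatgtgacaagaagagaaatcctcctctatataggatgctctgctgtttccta
NFIL3 promoter (chr9:91424577-91424876, - strand): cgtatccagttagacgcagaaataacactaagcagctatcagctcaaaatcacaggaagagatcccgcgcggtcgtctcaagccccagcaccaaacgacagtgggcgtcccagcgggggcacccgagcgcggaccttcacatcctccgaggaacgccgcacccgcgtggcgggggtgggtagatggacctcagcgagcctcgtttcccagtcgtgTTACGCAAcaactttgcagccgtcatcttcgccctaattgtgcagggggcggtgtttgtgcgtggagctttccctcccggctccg

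CEBPG and JDP2 carried the same 8 letters, TGATGCAA, starting at position -42 and -16 from their transcript starts. ATF3 had TGATGGAA at -191 of the window that lies farther upstream on the chromosome. In NFIL3 the site lay on the opposite strand and reads TTACGCAA in the printed direction, at -35. The windows of DDIT3, TRIB3, CEBPB and ATF4 held none of the 3 motifs, which says only that these letters were not in these windows.

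Measured on the brightest probe set of each gene, 8 of the 10 genes had all 3 AAPK arrays below all 3 DMSO arrays, a pattern seen for 17.1% of all genes. The other 2, ATF5 and CEBPA, overlapped. Since the genes were chosen from this contrast, nothing is read from that count. The median difference of the 10 genes was -0.69 on the log2 scale, beside -0.02 for all genes, and 4 of the 20 genes at least 2-fold lower in AAPK were among them. Over all probe sets, 16 of 24 separated with AAPK below DMSO, against 15.2% of single-symbol probe sets, and 0 with AAPK above; 21 of 24 differences were negative.

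**Figure D1:**
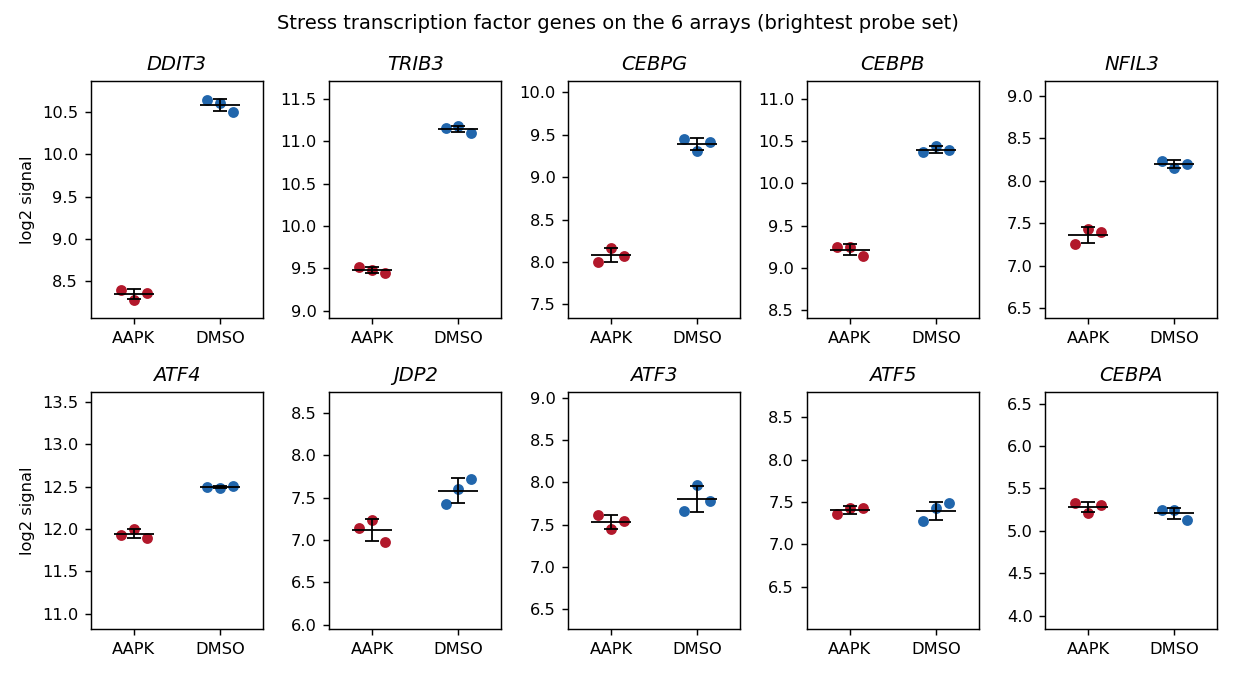
Log2 signal of the brightest probe set of each of the 10 genes, in order of the AAPK minus DMSO difference, with AAPK arrays in red at the left and DMSO arrays in blue at the right of each panel; points are arrays, the line and bars are the mean and SD (n = 3), and every panel spans the same height on the log2 scale. DDIT3 lies lowest relative to DMSO, at 8.35 against 10.58, and ATF5 and CEBPA overlap.

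ATF4, the factor that drives the response, had log2 signals of 11.93, 12.01 and 11.90 on the AAPK arrays, against 12.50, 12.48 and 12.50 on the DMSO arrays. All 3 AAPK arrays were lower, and the DMSO arrays lay within a narrow range. The means were 11.94 ± 0.05 in AAPK and 12.50 ± 0.01 in DMSO (SD, n = 3 each), a difference of -0.55 ± 0.05 (SE) or 1.47-fold lower. ATF4 is measured by 1 probe set, of the type whose probes can match other sequences, and RefSeq lists 4 ATF4 pseudogenes, so its signal may hold more than the gene itself. The arrays measure the messenger and not the ATF4 protein, whose amount depends on translation.

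DDIT3, which encodes CHOP, a bZIP protein that dimerises with C/EBP factors, had the lowest difference of all 18132 genes. Its signals were 8.39, 8.28 and 8.37 on the AAPK arrays, against 10.64, 10.60 and 10.50 on the DMSO arrays. The groups were far apart compared with their ranges: the means were 8.35 ± 0.06 in AAPK and 10.58 ± 0.07 in DMSO, 4.71-fold lower in AAPK. The second DDIT3 probe set gave nearly the same difference, -2.24, with means of 7.82 ± 0.06 in AAPK and 10.06 ± 0.04 in DMSO.

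TRIB3 stood next after DDIT3 among all genes when each was read by its brightest probe set. This rank did not hold under other rules. With a gene's probe sets averaged, GADD45A at -1.49 and MAT2A at -1.47 were lower than TRIB3 at -1.46. Taking each gene's most variable probe set instead put MAT2A at -2.12 and TRIB3 at -1.67. On its brightest probe set TRIB3 had 9.52, 9.48 and 9.44 on the AAPK arrays, against 11.16, 11.18 and 11.10 on the DMSO arrays. Neither group spread over more than a small part of the gap between them. The difference was -1.67 ± 0.05, or 3.18-fold lower, and the dimmer probe set was at -1.24, with means of 8.01 ± 0.04 in AAPK and 9.25 ± 0.07 in DMSO. Its paralogs TRIB1 and TRIB2, which share the pseudokinase fold, had 0.03 ± 0.04 and -0.04 ± 0.06 and did not pass (limma adjusted p = 0.733 and 0.756).

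Of the C/EBP genes, CEBPG, a short C/EBP protein that pairs with ATF4 and whose promoter window is printed above, had 7.998, 8.16 and 8.07 on the AAPK arrays, against 9.45, 9.31 and 9.42 on the DMSO arrays. All AAPK values were lower, by a mean of -1.32 ± 0.06, and the dimmer probe set was at -1.13. CEBPB, an activator of acute-phase and differentiation genes that also binds stress-response promoters, had 9.25, 9.25 and 9.15 in AAPK against 10.37, 10.44 and 10.39 in DMSO. Its groups did not overlap either, and AAPK was 2.27-fold lower on its single probe set (difference -1.18 ± 0.05). CEBPA, a factor of myeloid, liver and fat cell differentiation, had 5.32, 5.21 and 5.30 in AAPK against 5.25, 5.24 and 5.13 in DMSO. These groups overlapped, and the difference was 0.07 ± 0.05. CEBPA's probe set was dimmer than most, at percentile 16.1 of gene signals, so it bears on CEBPA only within that limit. Outside the 10 genes, CEBPD and CEBPE had 0.10 ± 0.06 and 0.01 ± 0.07 and did not pass (limma adjusted p = 0.304 and 0.967). CEBPE was dimmer still, at percentile 6.65, while the other 4 CEBPD probe sets ran from 0.06 to 0.18.

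NFIL3, a bZIP repressor of circadian and immune genes, had 7.26, 7.43 and 7.40 on the AAPK arrays, against 8.24, 8.15 and 8.20 on the DMSO arrays. AAPK was lower throughout, by a mean of -0.83 ± 0.06 or 1.78-fold, on the 1 probe set of the gene. JDP2, a bZIP repressor that pairs with JUN and ATF proteins, had 7.14, 7.24 and 6.98 in AAPK against 7.43, 7.60 and 7.72 in DMSO. The groups separated, though JDP2 was among the members with the widest spread within groups, with an SD of 0.13 in AAPK and 0.15 in DMSO. The difference was -0.46 ± 0.08, and the other JDP2 probe sets were at -0.56 and -0.12, both with AAPK below DMSO on all arrays.

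ATF3, a bZIP factor induced by many stresses, depended most on the probe set. Its brightest had 7.62, 7.45 and 7.54 on the AAPK arrays, against 7.66, 7.96 and 7.78 on the DMSO arrays. Here the highest AAPK array lay just below the lowest DMSO array, and the difference was -0.27 ± 0.07. The second probe set had 6.91, 6.98 and 6.91 in AAPK against 7.63, 7.72 and 7.83 in DMSO, a wide gap with a difference of -0.79. The other 5 probe sets had differences of -0.65, -0.02, -0.41, -0.07 and -0.13 in order of brightness. Of the 7, 4 separated with AAPK below DMSO and 3 overlapped. Which transcripts each probe set reads was not tested.

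ATF5, a stress-induced bZIP factor with an upstream-frame control like that of ATF4, had 7.36, 7.43 and 7.43 on the AAPK arrays, against 7.28, 7.43 and 7.48 on the DMSO arrays. The groups overlapped, and the difference was 0.01 ± 0.06. Its other 3 probe sets were at 0.03, -0.04 and -0.07, and all of them overlapped.

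**Figure D2:**
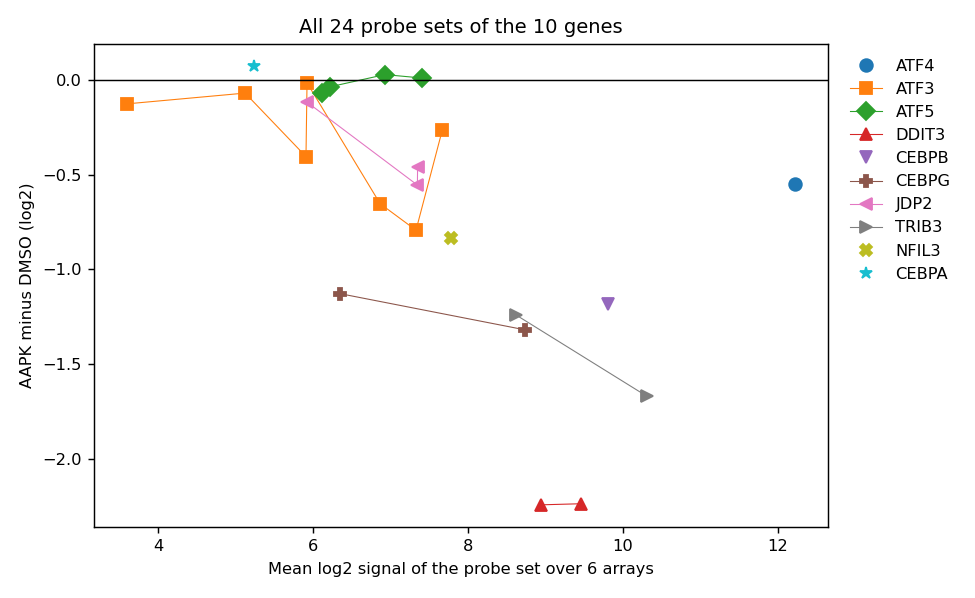
AAPK minus DMSO difference (log2) of all 24 probe sets of the 10 genes against the mean log2 signal of the probe set over the 6 arrays; 1 symbol and colour per gene, with lines joining probe sets of a gene in order of brightness. The 2 DDIT3 probe sets lie level, at -2.23 and -2.24, the 7 ATF3 probe sets range from -0.79 to -0.02, and the 4 ATF5 probe sets lie close to 0.

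Within groups the 10 genes varied about as much as other genes. The median within-group SD was 0.07 for them and 0.06 for all genes, with TRIB3, ATF4 and CEBPB at the tight end and ATF3 and JDP2 at the wide end.

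The rest of the bZIP family is given beside the 9 bZIP genes among the 10, all but the pseudokinase TRIB3. The 10 genes were picked for their fall in this contrast. Where the 9 stand in the family therefore follows in part from that choice and was not tested. Of 41 other measured bZIP factors 6 fell, 2 rose and 33 did not pass limma's threshold of adjusted p 0.05, where 7.26% of all genes were called lower and 8.11% higher. Their median difference was -0.03. CREB1, the cyclic AMP-responsive activator, fell by 0.86 (SE 0.07; 6.59 ± 0.12 in AAPK and 7.44 ± 0.09 in DMSO, SD, n = 3 each; limma adjusted p = 2.88e-05), and its 6 other probe sets ran from -0.61 to -0.26. CREM, the related modulator whose isoforms include repressors, rose by 0.48 (SE 0.05; 9.11 ± 0.07 in AAPK and 8.63 ± 0.06 in DMSO; limma adjusted p = 2.18e-04), and all 9 other probe sets were above 0, at 0.04 to 0.61. NFE2L2, which encodes the antioxidant regulator NRF2, fell by 0.44, and DBP, a circadian activator that binds the same sites as NFIL3, fell by 0.41 (adjusted p = 4.01e-04 and 0.00122). Without DMSO replicate 1 the higher count was 1 and with median centring it was 4.

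**Figure D3:**
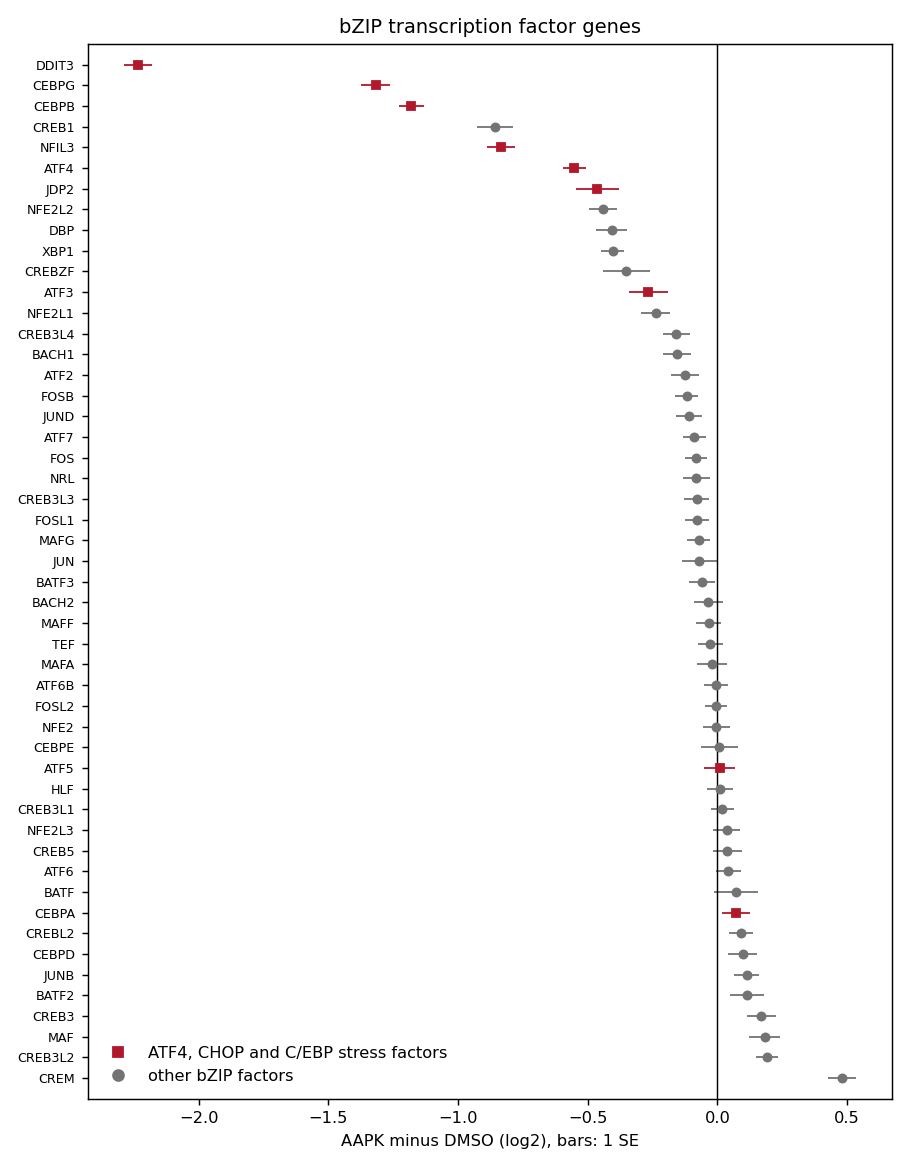
AAPK minus DMSO difference (log2, bars 1 SE) of the brightest probe set of the 9 bZIP genes among the stress factors (red squares) and of 41 other bZIP genes (grey circles), ordered from the lowest at the top to the highest at the bottom. DDIT3, CEBPG and CEBPB lie below CREB1, the lowest of the other factors at -0.86, and CREM is the highest at 0.48. The stress factors were chosen from this contrast, so their place is a description.

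Genes that ATF4 and CHOP are known to induce were then counted as the targets of these factors. These lists were chosen with earlier results of these data known, so their counts and medians are given as background only. Of 22 measured genes of amino acid synthesis, one-carbon metabolism and tRNA charging or export, 16 fell, 1 rose and 5 did not pass. Their median was -0.38 beside -0.02 for all genes, of which 7.26% were called lower and 8.11% higher. CARS1, the cysteinyl-tRNA synthetase, fell by 0.99 (7.93 ± 0.05 in AAPK and 8.93 ± 0.05 in DMSO, limma adjusted p = 1.07e-06). PSAT1, of serine synthesis, ASNS, asparagine synthetase, and CTH, which makes cysteine, fell by 0.97, 0.94 and 0.94. The enzyme that rose was ALDH18A1, of proline synthesis, at 0.37; it is named because of its value.

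All 8 measured genes for plasma membrane amino acid carriers and their subunits fell, with a median of -0.31. However, 6 of them were called with median centring or with the replicate block, and 6 or 7 with any 1 array left out. The cationic carrier SLC7A1 fell by 0.62 (adjusted p = 1.70e-05) and the glutamine carrier SLC1A5 by 0.60 (adjusted p = 2.42e-04). The leucine carrier SLC7A5 fell by 0.40, and the glycine carrier SLC6A9 by 0.34. The other probe sets of SLC7A1 ran from -0.31 to 0.00 and those of SLC6A9 from -0.32 to 0.01, all dimmer than the one used. Of 20 stress effectors 15 fell, 0 rose and 5 did not pass, with a median of -0.54, where 7.26% of all genes were called lower. With 1 array left out, 12 to 14 effectors were called lower. The leucine sensor SESN2, the secreted glycoprotein STC2, the BH3-only death gene PMAIP1 and the mTORC1 inhibitor DDIT4 fell by 1.33, 1.29, 1.29 and 1.12 (limma adjusted p = 2.53e-07, 8.21e-07, 5.04e-07 and 5.04e-07).

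Upstream of ATF4, the genes for the eIF2 kinases, eIF2, its exchange factor eIF2B and the phosphatase subunits were counted in the same way. GCN1, IMPACT, OMA1 and DELE1 were counted with them, and PPP1R15A is also in the effector list. Of 21 measured, 4 fell, 4 rose and 13 did not pass, with a median of 0.06. Over all genes 7.26% were called lower and 8.11% higher. Among the 4 kinases, EIF2AK2, which senses double-stranded RNA, rose by 0.20 (8.31 ± 0.01 in AAPK and 8.11 ± 0.05 in DMSO, limma adjusted p = 0.0126). EIF2AK3, the endoplasmic reticulum kinase PERK, had 0.13 ± 0.04 and did not pass (adjusted p = 0.0749), though it did when its probe sets were averaged (0.16, adjusted p = 0.0228), with median centring and with either filter on dim genes. EIF2AK1, the haem-regulated kinase, had 0.00 ± 0.05, and EIF2AK4, the amino acid sensor GCN2, had 0.06 ± 0.08 (adjusted p = 0.986 and 0.699). Both were called on the probe set with the largest spread, at 0.40 and 0.25 (adjusted p = 0.00302 and 0.0236). GCN1, the activator of GCN2, rose by 0.31, and IMPACT, which competes with GCN2 for GCN1, fell by 0.53 (adjusted p = 0.00122 and 4.02e-04). The eIF2 subunit genes EIF2S2 and EIF2S3 fell by 0.36 and 0.26 (adjusted p = 3.89e-04 and 0.0134). The calls on EIF2AK2 and EIF2S3 were lost without AAPK replicate 1 (adjusted p = 0.0519) and without AAPK replicate 2 (adjusted p = 0.0514), in that order. The count of genes that rose was 1 without AAPK replicate 1, 2 without DMSO replicate 1 or 2, and 7 on probe sets chosen by spread or averaged. The arrays do not measure eIF2 phosphorylation.

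The ATF6 and XBP1 arms of the unfolded protein response, which run beside PERK and ATF4, were the last list. Of 16 endoplasmic reticulum chaperone and degradation genes 7 rose, 1 fell and 8 did not pass, with a median of 0.13. The shares over all genes were 8.11% called higher and 7.26% lower. MANF, a secreted stress factor, SDF2L1, a chaperone cofactor, and PDIA4, a disulfide isomerase, rose by 0.50, 0.47 and 0.38 (limma adjusted p = 8.78e-05, 1.66e-04 and 2.59e-04). EDEM1, a degradation lectin, rose by 0.36, but its 4 other probe sets ran from -0.06 to 0.12 and the mean of all of them did not pass (0.10, adjusted p = 0.127). The gene that fell was DNAJB9, an XBP1 target cochaperone, at -0.36; it too is named because of its value. XBP1 itself, counted above with the bZIP factors, fell by 0.40 (adjusted p = 2.11e-04), and HERPUD1, a degradation gene of the endoplasmic reticulum that was counted with the stress effectors, fell by 0.91 (adjusted p = 3.03e-06); both are named because of their values. The difference in balance between this list and the ATF4 targets was not tested.

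**Figure D4:**
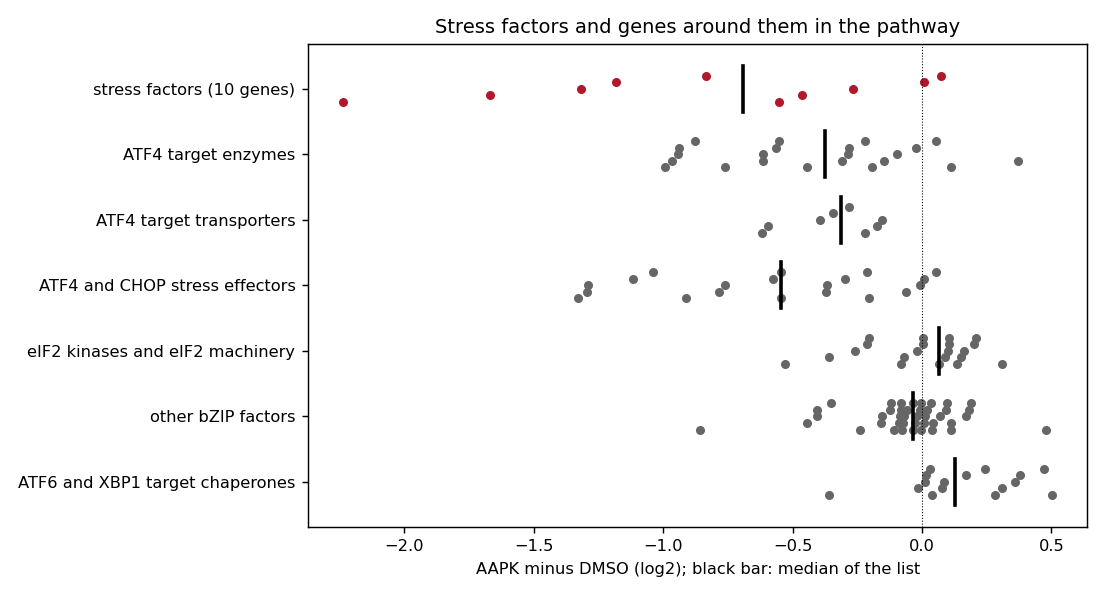
AAPK minus DMSO difference (log2) of the 10 stress factor genes (red) and of 6 lists of genes around them (grey); each point is the brightest probe set of a gene, vertical offsets only separate points, and black bars are list medians. The stress factors have a median of -0.69, the target lists medians of -0.38, -0.31 and -0.54, and the eIF2, other bZIP and chaperone lists medians of 0.06, -0.03 and 0.13. The stress factors were chosen from this contrast and the lists with earlier results known, so the medians are a description.

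Profiles over the 6 arrays, each centred on its DMSO mean, were compared by root mean square distance, which is small where 2 genes differ between the groups by the same amount. Nearest to ATF4 were HACD2, a fatty acid elongation enzyme, AVPI1, BTG1, an antiproliferative gene, and SHMT2, the mitochondrial serine enzyme of the target list, at distances of 0.03 log2 units each and differences of -0.57, -0.55, -0.59 and -0.57. Nearest to CEBPG were PMAIP1 at 0.05, STC2 at 0.08, RNF144B at 0.09 and MAT2A at 0.10. With each gene read by its brightest probe set, no gene lay close to DDIT3. The nearest, TRIB3, was at 0.40, followed by CAMTA2 at 0.52, GADD45A at 0.54 and MAT2A at 0.59. That order depends on the probe set. All dimmer MAT2A probe sets but 1 had differences nearer to the -2.23 of DDIT3 than the -1.67 of TRIB3 was. The genes nearest to TRIB3 were CAMTA2 at 0.14, GADD45A at 0.16, MAT2A at 0.19 and RNF144B at 0.22. CAMTA2 had 0.07 on its other probe set, and RNF144B had -0.08 and -0.28 on its other 2. The other MAT2A probe sets ran from -2.12 to -1.83 with 1 exception at 0.59. Dimmer probe sets of HACD2 had -0.38 and -0.43, those of BTG1 -0.53 and -0.07, and those of STC2 -1.04 and -0.66. Those of SHMT2 ran from -0.50 to -0.48, and that of PMAIP1 was at -1.31. These likenesses thus rest on the brightest probe sets. All these profiles come from the same 6 arrays in 2 groups, and the likeness is a description.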

How the data were processed

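Expression was measured on 6 arrays, 3 AAPK and 3 DMSO, grouped and numbered by sample title. The authors deposited log2 signals for 49395 probe sets; their range, 2.83 to 14.25, is the basis for that scale. Array quartiles are nearly equal; the normalisation method is not given in the sources used here, and differences are relative to the bulk of genes. Probe sets were named from the platform table: 44988 named 1 symbol, 1832 several, 2473 none and 102 were controls, and only the first were used. The probe set with the highest mean over all arrays stood for a gene. AAPK minus DMSO was fitted over 18132 genes with limma 3.58.1 in R 4.3.3 (lmFit, eBayes, two-sided) and Benjamini-Hochberg adjustment, threshold 0.05. The labels do not say that replicates were separate cultures, so p-values measure only the spread between arrays, possibly technical, and 3 arrays per group limit the precision.

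The members and lists were chosen with earlier results of these data known. Genes named are the 10 members; the 4 eIF2 kinases, TRIB1, TRIB2, CEBPD and CEBPE; from each pathway list the 4 with the largest difference among those past the threshold with no overlap; and the 4 genes nearest in profile to ATF4, DDIT3, CEBPG and TRIB3. Outside this rule, ALDH18A1, DNAJB9, XBP1 and HERPUD1 are named because of their values. OMA1, DELE1 and PPP1R15A are named only to describe the eIF2 list. Marker lists were checked in the same fit, and KRT8, KRT18, KRT19, ELF3, EPCAM and CDH1 are named from them. Alternatives changed the probe set rule, normalisation, filter, variance model, array weights, pairing and arrays used.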

Additional observations from a re-analysis of the deposited data

How the results depend on the processing

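Of 120 values of the 10 genes under 12 alternatives, 115 stayed within 1 SD of the reported value, and 9 of the 10 genes kept their sign in all of them; ATF5, near 0, did not. Chosen by largest spread, the probe sets gave -0.79 for ATF3 and a median of -0.81 over the 10 genes. With a gene's probe sets averaged, CEBPG was at -1.22 and TRIB3 at -1.46, and with quantile normalisation CEBPB was at -1.23 and TRIB3 at -1.73. Among 40 other named genes, 584 of 593 values kept direction and side of the threshold. Same-numbered AAPK and DMSO arrays did not deviate together (r = -0.02, -0.23 and -0.05 over genes). With 3 arrays per group, centring on group means ties these correlations together, so whether same-numbered samples were processed together cannot be read from them. With the replicate block 983 genes were lower and 1116 higher. The eIF2 list then had 2 higher genes, against 7 by largest spread, 7 with probe sets averaged and 1 to 3 with 1 array left out. The other bZIP list had 4 higher genes with median centring and 1 to 3 with 1 array left out. In all, 183 of 192 counts and medians stayed within 1.5 times the reported count or 1 SD. Which transcripts differ among probe sets, and background correction, could not be examined from the deposited values; no probe-level detection call was used, so dim probe sets such as that of CEBPA are limited by signal over background.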
